A study of Mus musculus with 3 samples.

Results

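Cytosolic ribosomal protein genes encode the protein parts of the ribosome that translates nuclear-encoded mRNA. They were chosen by symbol, as protein-coding genes named Rpl or Rps with a number, together with Rplp0, Rplp1, Rplp2 and Rpsa, and without the genes of the S6 kinases. The GRCm38 annotation held 83 such genes among 21951 protein-coding genes. Of these, 48 belong to the large subunit, 3 to its stalk and 32 to the small subunit, and 6 are paralogs of another ribosomal protein gene (Rpl3l, Rpl10l, Rpl22l1, Rpl39l, Rpl7l1 and Rps27l). Open chromatin had been profiled by ATAC-seq, a method in which a transposase cuts and tags accessible DNA. Bone marrow of C57BL/6 mice had been turned into pre/pro-B-cell lines by retroviral transfer of the BCR-ABL(p185) oncogene, on a vector that also expresses GFP, and all groups carry this oncogene. The wildtype group (WT, Cdk6+/+) had unmutated Cdk6. The K43M group (Cdk6KM/KM) was homozygous for a Cdk6 allele whose kinase is inactive. There were 2 lines per genotype and 1 peak list per line, and no group without the oncogene was analysed here. Of the WT lists, 1 carries no replicate number and is called WT unnumbered. Per the design text it was deposited with earlier work and reprocessed for the present series, so line and earlier library cannot be told apart in its values. A line grown out of transduced marrow is a single culture, so differences between lines of a genotype are part of the error.

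The lists held between 33038 and 39038 peaks, most of them in K43M replicate 1, and the median fold enrichment of a list lay between 6.61 and 6.94. Fold enrichment is the height of a peak at its summit divided by the local background, as MACS2 gave it to the authors. Read totals were not used here, so the depth of each library is unknown. Of 7 markers of B-cell precursors, 6 (among them Pax5, Ebf1, Cd79a, Igll1 and Vpreb1) had a promoter peak in all 4 lists and Cd79b in 3. Of 10 markers of other cell types, 8 had none in any list, Lyz2 had one in both WT lists and Gfap in WT replicate 2. The part of other cells in the results below was not tested.

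A ribosome holds a single copy of most of its proteins, and cells make them in matching amounts. Their genes are scattered over the genome and are transcribed at a high rate in every growing cell, from compact promoters that lie in CpG-rich DNA. Many start transcription at a cytosine followed by a run of pyrimidines. This terminal oligopyrimidine (TOP) start puts translation of the mRNA under control of the kinase mTOR. Sites for ETS family factors and for SP1 are known from many of these promoters. Mutations of single members cause Diamond-Blackfan anaemia, and loss of others releases p53 through the binding of free ribosomal proteins to MDM2. Leukaemia cells that divide fast depend on a high output of ribosomes.

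The promoters below are those of members that the results turn on, taken from 150 bases before to 20 bases from the annotated start that lies closest to the summit (GRCm38). Letters in capitals are matches to CCGGAAG (ETS), GGGCGG (SP1) or TATAAA (the TATA box) on either strand, and the pyrimidine run at a TOP start. The first pair are the small-subunit genes with the highest and the lowest difference in fold enrichment between the genotypes, Rps10 (chr17:27635225-27635394, minus strand) and Rps18 (chr17:33955658-33955827, minus strand).
Rps10: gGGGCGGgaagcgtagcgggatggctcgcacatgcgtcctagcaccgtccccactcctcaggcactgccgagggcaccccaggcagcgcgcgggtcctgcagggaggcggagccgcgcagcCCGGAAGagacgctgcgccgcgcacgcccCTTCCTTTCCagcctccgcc
Rps18: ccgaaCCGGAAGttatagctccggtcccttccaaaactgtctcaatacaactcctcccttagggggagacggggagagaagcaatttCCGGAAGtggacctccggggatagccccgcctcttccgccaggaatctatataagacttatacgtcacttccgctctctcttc
Rps10 starts with a run of 10 pyrimidines, while no such run was found at the annotated start used for Rps18, which has 2 ETS matches. A pyrimidine run led by a C does lie at the end of the printed Rps18 stretch, downstream of that start.

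The next promoters show TOP starts. They belong to Rpl37 (chr15:5116495-5116664, plus strand), Rps21 (chr2:180257227-180257396, plus strand) and Rpl36 (chr17:56613266-56613435, plus strand).
Rpl37: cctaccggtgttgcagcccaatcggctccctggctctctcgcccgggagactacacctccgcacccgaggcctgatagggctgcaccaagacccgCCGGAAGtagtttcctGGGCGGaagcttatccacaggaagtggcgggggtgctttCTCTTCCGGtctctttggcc
Rps21: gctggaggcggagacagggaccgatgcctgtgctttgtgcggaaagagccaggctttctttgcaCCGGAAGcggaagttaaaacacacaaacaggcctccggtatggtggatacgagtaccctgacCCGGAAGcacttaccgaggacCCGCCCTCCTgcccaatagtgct
Rpl36: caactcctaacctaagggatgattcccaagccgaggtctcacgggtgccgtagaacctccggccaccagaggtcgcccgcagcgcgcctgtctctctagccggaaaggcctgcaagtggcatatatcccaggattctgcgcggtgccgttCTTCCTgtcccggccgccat
The runs at Rpl37 and Rps21 are 7 pyrimidines long and that at Rpl36 is 6. Rpl37 and Rps21 each hold 2 ETS matches and 1 SP1 match, and no match to the 3 motifs was found in this stretch of Rpl36.

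The last group sets promoters of the highest-ranking peaks, Rpl15 (chr14:18271048-18271217, minus strand) and Rplp0 (chr5:115559317-115559486, plus strand), beside a promoter without a peak, that of Rpl10l (chr12:66284382-66284551, minus strand).
Rpl15: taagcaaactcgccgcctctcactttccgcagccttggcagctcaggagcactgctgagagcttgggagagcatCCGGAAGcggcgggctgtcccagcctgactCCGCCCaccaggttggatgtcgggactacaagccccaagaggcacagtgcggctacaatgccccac
Rplp0: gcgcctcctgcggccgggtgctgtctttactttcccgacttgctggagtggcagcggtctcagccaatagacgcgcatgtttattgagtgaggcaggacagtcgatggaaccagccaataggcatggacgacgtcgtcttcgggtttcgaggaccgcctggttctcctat
Rpl10l: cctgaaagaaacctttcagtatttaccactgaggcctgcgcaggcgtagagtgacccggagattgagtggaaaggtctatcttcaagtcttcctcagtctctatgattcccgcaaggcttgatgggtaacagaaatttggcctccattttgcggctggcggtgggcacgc
Rpl15 has 1 ETS and 1 SP1 match here. No match to the 3 motifs was found in this stretch of Rplp0 or of Rpl10l.

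Sequence features were counted from 250 bases before to 50 bases after the start in all members with a promoter peak in the 4 lists. CCGGAAG, the ETS core, was found in 30 of 80 members (37.5%, 95% Wilson interval 27.7 to 48.5). It was found in 21.5% of the 10446 protein-coding genes with such a peak and a sequence, and in 12.0% of all 21938 genes with a sequence. The members with the ETS core include Rps10, Rps18, Rpl15, Rpl32, Rps14 and both acidic stalk genes, Rplp1 and Rplp2. Around the start of the gene entry, instead of the start closest to the summit, the share was 27.5% of members and 19.1% of genes with a peak.

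GGGCGG, a match for SP1, was found in 44 of 80 members (55.0%, 44.1 to 65.4) and in 68.1% of genes with a peak. CCAAT, the core of the NFY site, was found in 32.5% of members and 40.2% of genes with a peak. The NRF-1 site, GCGCA directly followed by its reverse complement, was found in 2 members (2.5%), Rpl10a and Rpl37a, at the rate of all genes with a peak (2.46%). The members are therefore close to the background for NRF-1 letters. TATAAA was found in 9 members (11.2%, 6.03 to 20.02), among them Rplp0, Rps14 and Rps2. The share was 5.72% of genes with a peak and 11.9% of all protein-coding genes. AAGATGGC, for YY1, was found in 7.50% against 5.67%, and CACGTG, the E-box that MYC binds, in 8.75% against 10.8%. These intervals and shares cover counting error over genes only, and no test was made between the gene groups.

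A TOP start was counted where the start was a C with at least 4 more pyrimidines after it. Of the 80 members, 9 (11.2%, 6.03 to 20.02) had one at the start closest to the summit, among them Rpl4, Rpl32, Rpl36, Rpl37, Rpl37a, Rps10 and Rps21. The share was 2.28% among all genes with a peak and 1.28% (1 of 78) among mitochondrial ribosomal protein genes. When any annotated start of the gene was allowed, a setting chosen after seeing the data, 34 members (42.5%) had a TOP start, against 11.2% of genes with a peak. The members have a median of 6 annotated starts and genes with a peak 5, so members had somewhat more starts to draw from. The count of TOP starts therefore depends on which annotated start is read. The median G and C content was 56.2% in members and 61.7% in genes with a peak, and the median observed over expected CpG was 0.86 and 0.80.

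**Figure D1:**
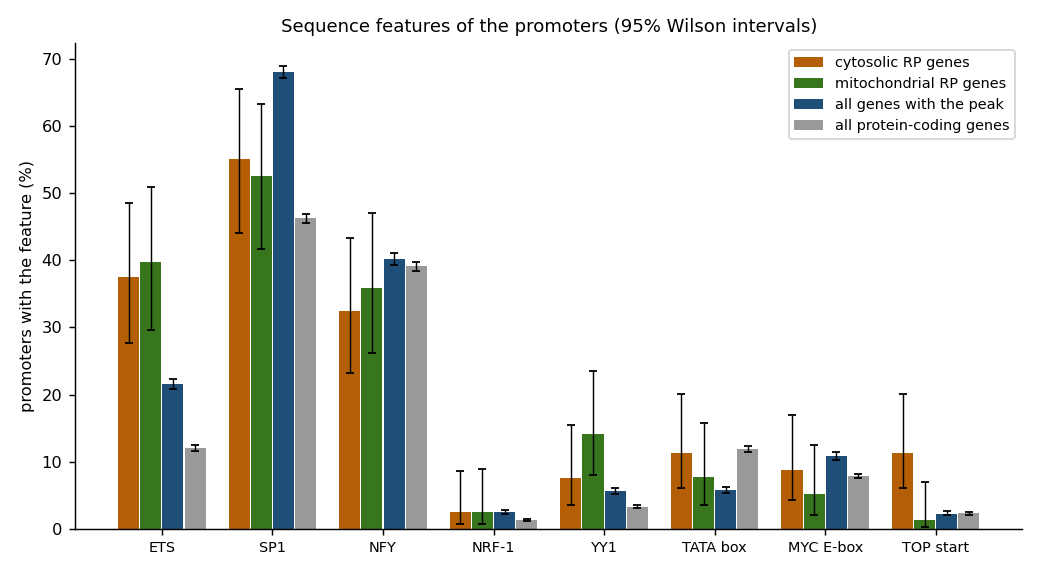
Share of promoters (y axis, percent) with each sequence feature (x axis) from 250 bases before to 50 after the start, for 80 cytosolic ribosomal protein (RP) genes, 78 mitochondrial RP genes, all protein-coding genes with a promoter peak in the 4 lists and all protein-coding genes; bars are shares and lines 95% Wilson intervals. ETS matches stand at 37.5% and 39.7% in the cytosolic and mitochondrial RP genes, and the TOP start at 11.2% and 1.28%.

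The first comparison asked which members have an open promoter in these cells. A promoter peak was a peak overlapping the stretch that begins 2000 bp upstream of an annotated start of the gene and ends 200 bp downstream of it. Of the 83 members, 80 (96.4%) had one in every list, against a background of 47.6% of all protein-coding genes. These were all 32 small-subunit genes, all 3 stalk genes and 45 of 48 large-subunit genes. The mitochondrial ribosomal protein genes were open in 78 of 78 cases and the electron transport chain genes in 78 of 86.

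The 3 members without a promoter peak had none in any list, and all are paralogs known for expression in particular tissues. Rpl10l (chr12:66283379-66284401), an intronless copy that serves in the testis, had its nearest peak between 774696 and 774734 bp from the start. For Rpl39l (chr16:10170226-10174911), another gene of male germ cells, that distance was 213984 bp in WT unnumbered and between 241507 and 241514 bp in the other lists. Rpl3l (chr17:24727820-24736143) is the form of Rpl3 in striated muscle. A peak lay between 3238 and 3263 bp from its start, outside the promoter stretch, with a fold enrichment between 5.86 and 6.0 in the 4 lists. The observed over expected CpG was 0.089 at Rpl3l, 0.64 at Rpl10l and 0.83 at Rpl39l, and among the open members it ran from 0.33 at Rpl39 upwards.

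The other 3 paralogs were open in all lists. Rpl22l1, which can stand in for Rpl22, was among the highest-ranking members. Rps27l, known as a p53 target, had fold enrichments of 11.84 and 11.02 in the WT lists and 11.09 and 10.29 in the K43M lists. Rpl7l1 had 9.27 and 9.17 in WT and 11.82 and 9.83 in K43M. At Rpl7l1 both K43M values were above both WT values, but the lower one was closer to the WT values than to the other K43M value.

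No member was open in 1 genotype only, that is, in each list of that genotype and in no list of the other (0 of 83). Across all protein-coding genes 0.515% had such a peak in WT only and 2.00% in K43M only. The study defined open regions by peaks that overlap each other between the lists of a genotype. By that rule 80 members were open in both genotypes and none in 1 only. Both counts are by gene, and a single start can differ, as at Rps14 below.

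The second comparison asked how strong these peaks are within their list. Each peak was given its percentile by fold enrichment, so that 100 is the strongest peak of the list. The median percentile of the members was 79.7 and 79.0 in the WT lists (unnumbered, then replicate 2) and 80.5 and 80.6 in the K43M lists (replicate 1, then 2). Over all protein-coding genes with a promoter peak in the 4 lists it was 78.6 and 79.9 in WT and 81.2 and 80.4 in K43M. The members were above these genes in WT unnumbered and K43M replicate 2 and below them in the other lists. Fewer members reached the top 10% of a list. The share was between 17.5% and 22.5%, against 25.2% to 28.4% of all genes with a peak.

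The small-subunit genes had a higher median than the large-subunit genes in each list. Their median percentiles were 81.6, 83.3, 81.7 and 83.9 in the order given above, and those of the large subunit 73.1, 72.1, 74.0 and 71.4. The lower quartile was between 72.2 and 75.9 for the small and between 53.4 and 61.7 for the large subunit. The gap was narrower by the significance of the peak. Ranked by the authors' -log10 q, the medians were between 81.2 and 85.7 for the small and between 79.9 and 82.9 for the large subunit. No test was made of this difference, since genes of 1 list are not replicates.

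**Figure D2:**
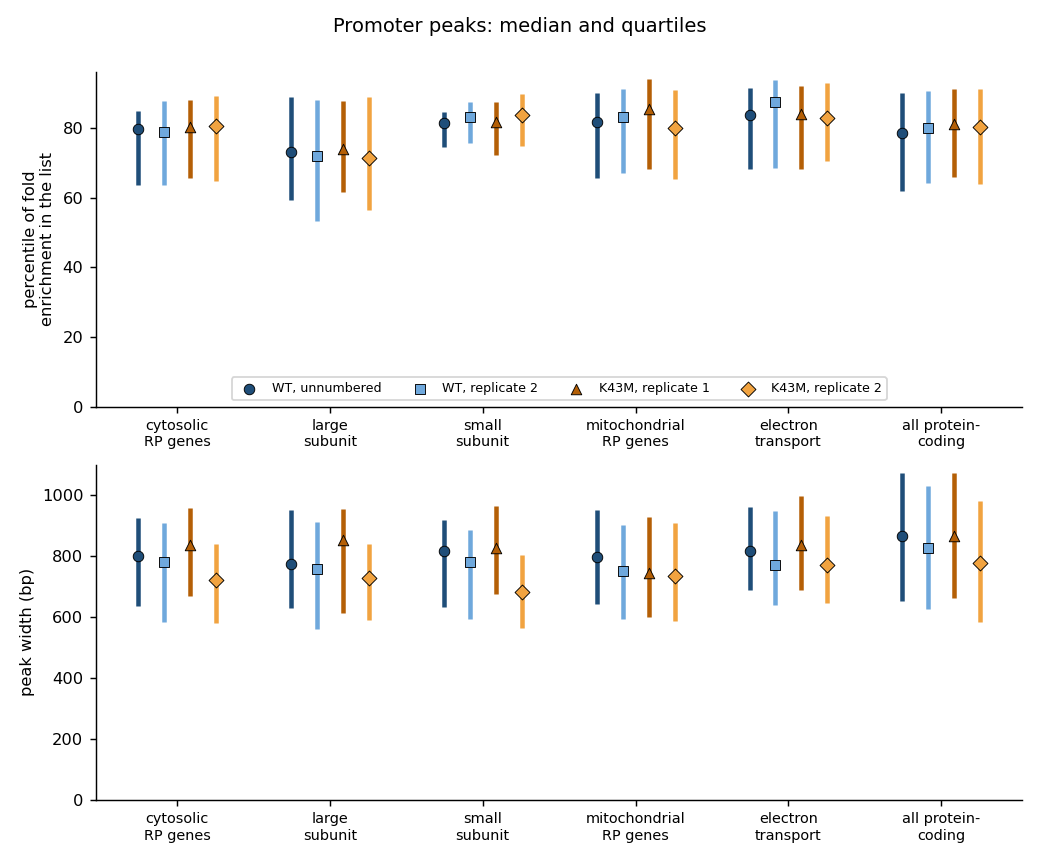
Percentile by fold enrichment within the list (upper plot) and peak width in bp (lower plot) of the promoter peaks of 6 gene groups; the symbol is the median, the bar runs from the lower to the upper quartile, and colours are the 4 lists. Medians of the small subunit lie between 81.6 and 83.9 and those of the large subunit between 71.4 and 74.0.

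The members varied widely among themselves. The top 5 by their lowest percentile were Rpl15, Rpl22l1, Rplp0, Rpl37 and Rpl27. Rpl15, a core protein of the large subunit, had fold enrichments of 13.43 and 13.56 in WT and 13.07 and 15.68 in K43M, and never ranked under percentile 94.6. Its peak also lies in the promoter of Nkiras1 in all lists, so it cannot be assigned to Rpl15 alone. Rplp0, the protein that anchors the stalk, had 12.61 and 14.53 in WT and 13.50 and 12.32 in K43M. The genotypes overlapped at both genes. Rpl22l1, Rpl37 and Rpl27 lay between percentile 92.9 and 97.98 in all lists.

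The bottom 5 were Rpl36, Rps15a, Rpl8, Rpl32 and Rpl38. Rpl36 had fold enrichments of 6.44 and 5.10 in WT and 5.6 and 4.51 in K43M, at percentiles 43.5, 23.2, 31.9 and 13.4. Its peaks were also narrow, between 307 and 515 bp. By -log10 q the same peaks stood higher, at percentiles 67.2, 61.0, 63.4 and 44.8. Rpl8, which lines the centre where peptide bonds are made, ran from percentile 18.7 in WT unnumbered to 45.4 in K43M replicate 1. Rpl32, which has a TOP start, ran from 26.5 in WT replicate 2 to 57.3 in WT unnumbered. Both extremes of Rpl32 were thus in lists of the same genotype.

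**Figure D3:**
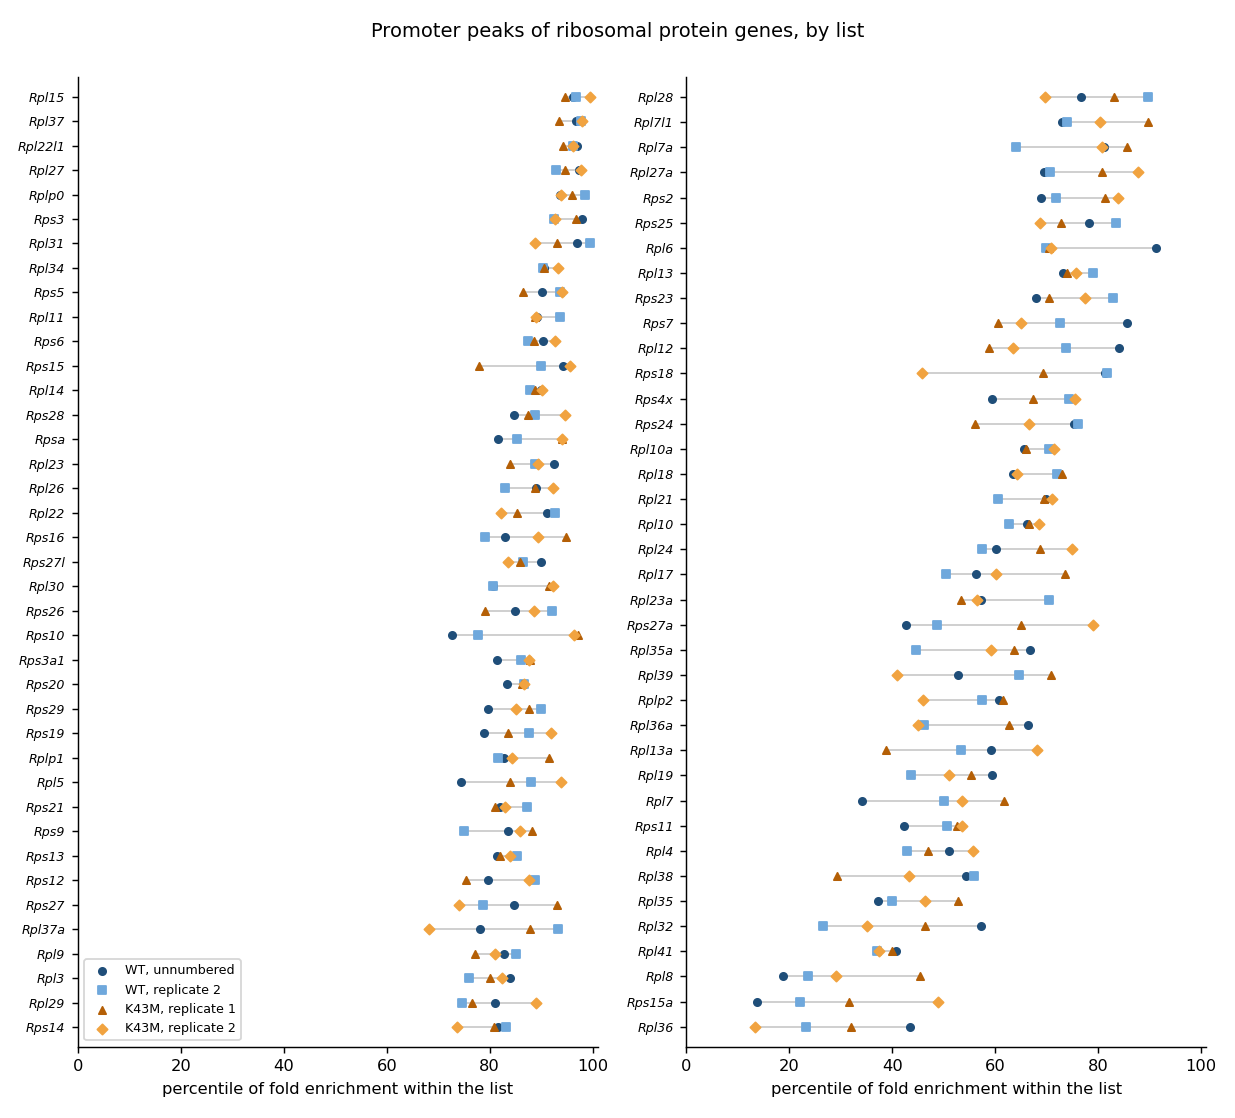
Percentile by fold enrichment within the list (x axis) of the promoter peak of 77 of the 80 open members (rows), sorted by mean and split over 2 columns; symbols are the 4 lists and the line joins lowest and highest. Rpl15 stands at the top and Rpl36 at the bottom.

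The spread over lists was smallest for Rpl14, with 2.49 percentile points between its lowest and highest list, and largest for Rps27a, with 36.2. The median spread was 13.3 points.

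The median peak of the members was narrower than that of all genes with a promoter peak in each list, without a test. The median width was 798.5 and 778 bp in the WT lists and 835 and 720.5 bp in the K43M lists. All genes with a promoter peak had 866 and 824 bp in WT and 866 and 775 bp in K43M. The trait is not particular to the members. Mitochondrial ribosomal protein genes had 796.5 and 749.5 bp in WT and 742 and 733 bp in K43M. Electron transport chain genes had 814.5 and 769.5 bp in WT and 833.5 and 771 bp in K43M. K43M replicate 2 had the lowest median among the members and among all genes with a promoter peak. Broad peaks were rare, since 1 member in 1 list was wider than 1500 bp, against 1.49% to 3.14% of all genes with a peak.

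Summits sat close to the annotated start. The summit lay within 100 bp of an annotated start for 86.2% and 77.5% of members in the WT lists and 87.5% and 88.8% in the K43M lists. Among all genes with a peak the share was between 68.7% and 69.8%. In mitochondrial ribosomal protein genes it was 83.3% in both WT lists and 75.6% and 73.1% in the K43M lists. In electron transport chain genes it was 83.3% in both WT lists and 79.5% and 80.8% in the K43M lists. The distance was taken to the nearest annotated start, so genes with more starts can come closer. The median number of starts was 6 in members, 5 in genes with a peak and 4 in mitochondrial ribosomal protein genes. Most summits were on the upstream side, with 54 to 59 of the 80 before the start in each list. The median position relative to the start was between -37.5 and -25.5 bp. Summits of the 4 lists lay over 100 bp apart in 14 members (17.5%), against a background of 30.4%. At Rps15a the summit of WT unnumbered was 284 bp downstream of the start, and those of the other lists at -170, -163 and -168 bp. At Rplp2 it was 254 bp downstream in WT unnumbered and at -74, -66 and -94 bp in the rest.

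**Figure D4:**
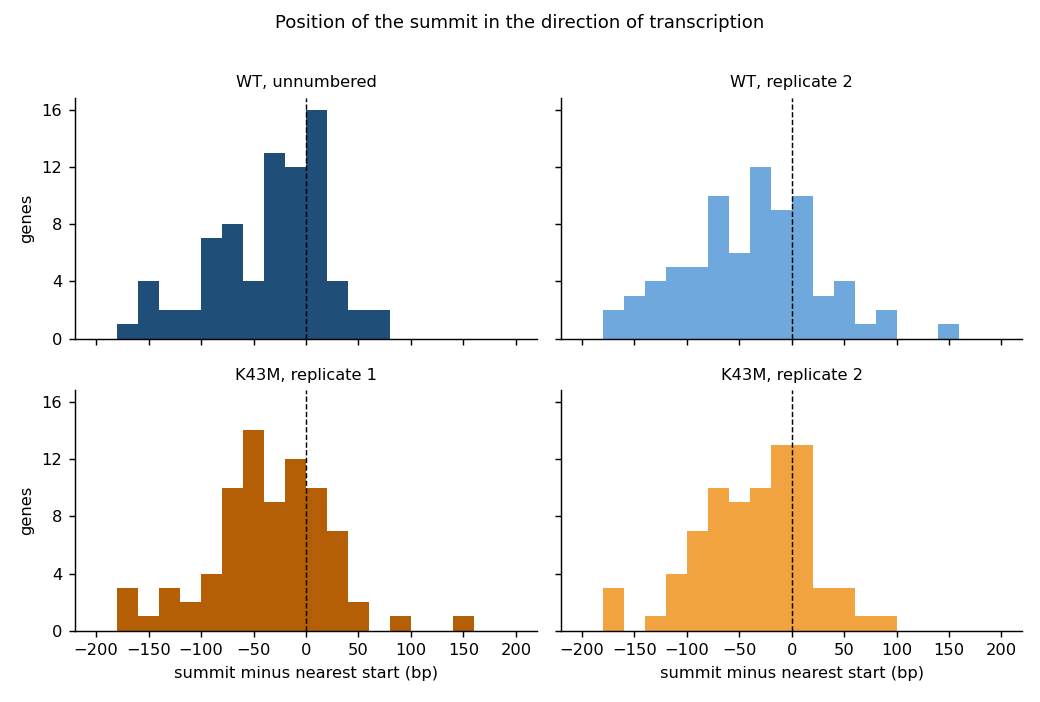
Position of the summit relative to the start (x axis, bp, negative is upstream, in bins of 20 bp) for the 80 open members (y axis, genes), by list; 1 to 3 members per list lie over 200 bp away and are not drawn. Most summits fall between the start and 100 bp upstream of it.

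A peak was shared with the promoter of another protein-coding gene in all 4 lists for 18 members (22.5%), close to the background of 24.5%. Rps28 shared its peak with Ndufa7, a subunit of respiratory complex I, and Rpl36a with Btk, a kinase of B-cell receptor signalling. A value at such a peak cannot be assigned to 1 of both genes. Rpl15, described above, shared its peak with Nkiras1. Rps10, Rps18, Rps27a, Rpl12 and Rps2, which are described next, are also among these 18 (Rps10 through a readthrough entry with the same start).

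The third comparison asked whether the peaks differed in strength between WT and K43M. Log2 fold enrichment was quantile-normalised over the 10455 genes with a promoter peak in every list and fitted with limma, with 2 lists per genotype. No member passed an adjusted p of 0.05 (0 of 80). The background was 0.0191% of all genes called higher and 0.00956% called lower in K43M. At an unadjusted p under 0.05 there were 8 members (10.0%), near the background of 9.43%. The median difference, K43M minus WT, was -0.01 in the members and -0.00 over all genes, with 37 members above 0 and 43 below. Quantile normalisation gives all lists the same distribution. The median over all genes is therefore near 0 by construction, and a shift common to all promoters cannot appear. The differences of the members ran from -0.48 to 0.51. With 2 lists against 2, the smallest p that an exact two-sided permutation test allows for a single gene is 0.333. The p-values and the SE given below rest on the spread between lines, which limma moderated toward a trend over all genes tested. They are therefore not set by the lines of a single gene alone. The replicate numbers of the lines do not pair them.

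Rps10 had the highest difference. It encodes a protein near the mRNA entry of the small subunit that is ubiquitinated on stalled ribosomes. Its fold enrichments were 9.22 and 9.68 in the WT lists and 13.99 and 13.16 in the K43M lists. Both K43M values were above both WT values, and the gap between the genotypes was larger than that within them. The percentiles were 72.6 and 77.7 in WT and 97.1 and 96.3 in K43M. The log2 difference was 0.51 ± 0.10 (SE, n = 2 per genotype), with an adjusted p of 0.142 in limma and a range of 0.113 to 0.489 over the alternatives. The widths of the peak were 618 and 624 bp in WT and 615 and 670 bp in K43M, and the groups overlapped in width.

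Rps18, whose product sits at the head of the small subunit, had the lowest difference. Its fold enrichments were 10.39 and 10.29 in WT and 8.66 and 6.34 in K43M, a log2 difference of -0.48 ± 0.16 (SE; adjusted p = 0.423 in limma). The difference was -0.29 without K43M replicate 2 and -0.67 without K43M replicate 1. The widths went the other way, with 434 and 454 bp in WT and 948 and 700 bp in K43M. In WT unnumbered a further peak of 352 bp lay 77 bp away, with a fold enrichment of 4.78, and each K43M peak overlapped both peaks of that list. The K43M values were lower in height and larger in width in both lists, and the groups did not overlap in either measure.

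Of the other members with the highest differences, Rps27a, which is made as a fusion with ubiquitin, had 6.36 and 6.59 in WT and 8.19 and 9.62 in K43M. The log2 difference was 0.44 ± 0.17 (SE; adjusted p = 0.489 in limma). K43M replicate 2 had a pair of peaks here, the second with 5.74, and the difference was 0.29 without that list and 0.09 with the peak nearest to a start (adjusted p = 0.921 in limma). Rps15a, Rpl27a and Rps16 followed with 0.32, 0.26 and 0.24. That of Rps15a was 0.18 without K43M replicate 2. At each of these 4 genes both K43M lists were above both WT lists in percentile. Like Rps10 and Rps18, they were picked for their difference in these same lists, so this order is no separate support. Across all genes with a promoter peak in every list, 24.5% had both K43M lists above both WT lists. Among the low values, Rpl12, at the base of the stalk, had 10.78 and 9.15 in WT and 7.58 and 7.78 in K43M (log2 difference -0.38 ± 0.15, SE; adjusted p = 0.491 in limma). Rps7 on chromosome 12 had 11.03 and 9.0 in WT and 7.69 and 7.95 in K43M (-0.36, and -0.22 without WT unnumbered). Over all genes tested on a chromosome that holds members, the median difference lay between -0.04 and 0.06, and it was -0.03 on chromosome 12.

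Rpl38, known for its part in the translation of Hox mRNAs, had 7.30 and 7.22 in WT and 5.39 and 6.13 in K43M (-0.34, and -0.21 without K43M replicate 1). At Rps24, a Diamond-Blackfan anaemia gene, the difference of -0.32 compares peaks at 2 different starts and was -0.20 without K43M replicate 1. The highest peak was at the downstream start in 3 lists and at an upstream start in K43M replicate 2, where the summit lay up to 3550 bp from those of the other lists. At the downstream start itself the fold enrichments were 9.58 and 9.45 in WT and 7.28 and 7.97 in K43M, and at the upstream one 6.15 and 8.29 in WT and 5.88 and 8.12 in K43M. The groups did not overlap at the downstream start and did at the upstream one.

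By percentile, both K43M lists were above both WT lists for 21 members (26.2%), against a background of 24.5%. Both were below for 15 members (18.8%), against 15.9%. The percentile depends on how many weak peaks a list holds, and the K43M lists held more peaks. Within the subunits, the counts were 10 above and 8 below among 45 large-subunit genes, and 10 above and 7 below among 32 small-subunit genes.

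**Figure D5:**
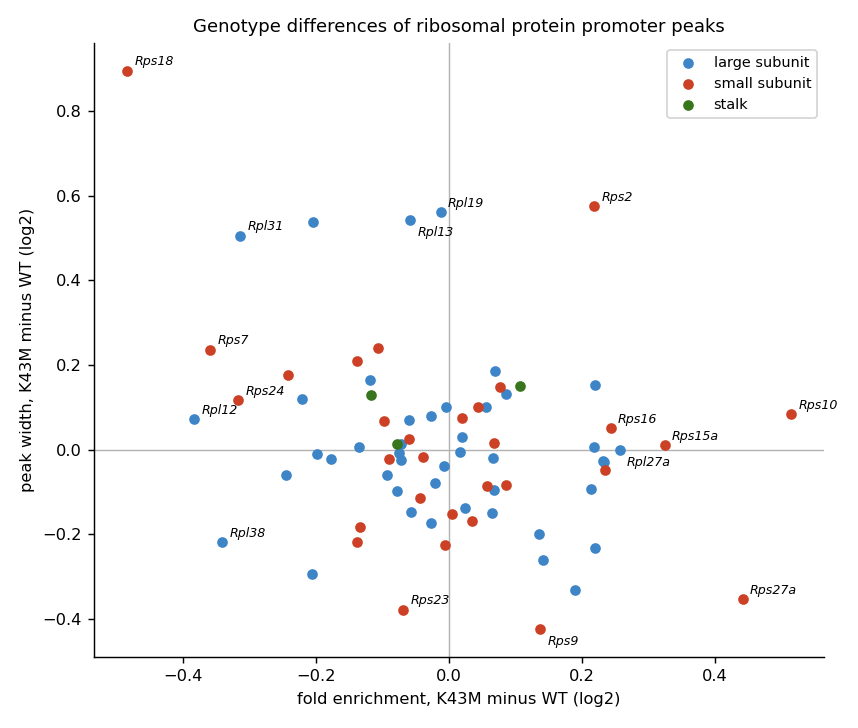
Difference between the genotypes, K43M minus WT on the log2 scale, in fold enrichment (x axis) and peak width (y axis) for 77 of the 80 open members, coloured by class. Most members lie near 0 on both axes, and Rps10 (0.51 in fold enrichment) and Rps18 (-0.48 in fold enrichment, 0.90 in width) lie at the edges.

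The widths were compared in the same way. No member passed an adjusted p of 0.05 in limma (0 of 80), where the background was 0% in either direction. At an unadjusted p under 0.05 there were 4 members (5.0%) against 6.40% of all genes. These were Rps18, Rps2, Rpl13 and Rpl31, all wider in K43M, of which Rpl13 and Rpl31 were named after their values were seen. Rps18 had a log2 width difference of 0.90 ± 0.20 (SE; adjusted p = 0.498 in limma). Rps2, at the mRNA entry, had 451 and 477 bp in WT and 769 and 596 bp in K43M. Rpl31 had 644 and 572 bp in WT and 922 and 758 bp in K43M, with fold enrichments of 13.76 and 15.55 in WT and 12.62 and 11.19 in K43M. Like Rps18 it was wider and lower in both K43M lists.

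Rpl19 had the third highest width difference, 0.56 ± 0.50 (SE), with 717 and 270 bp in WT and 795 and 501 bp in K43M. Its groups overlapped, and WT replicate 2 set the value, since without that list the difference was -0.11. In WT replicate 2 a further peak of 234 bp lay 77 bp away, with a fold enrichment of 6.07. The 270 bp are thus the width of a single peak of a pair. Among the lowest were Rps9 (-0.42) and Rps23 (-0.38, and -0.19 without K43M replicate 2). Rps9 had 360 and 692 bp in WT and 362 and 386 bp in K43M, so that its value rests on WT replicate 2 as well, and without that list it was 0.02. Both K43M lists were wider than both WT lists for 7 members (8.75%; background 14.5%) and narrower for 11 (13.8%; background 21.2%). Width is the authors' peak call at the significance of each library.

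Members named for their known roles gave the following values. Rpl5 and Rpl11, which bind MDM2 together with the 5S RNA when ribosome assembly fails, had fold enrichments of 9.46 and 11.29 in WT and 10.74 and 12.30 in K43M for Rpl5, and 11.69 and 12.50 in WT and 11.62 and 11.23 in K43M for Rpl11. The WT and K43M values of Rpl5 overlapped. At Rpl11 both K43M values were below both WT values, by a narrow margin (11.62 against 11.69 at the closest). Rps19, the gene most often mutated in Diamond-Blackfan anaemia, had 10.05 and 11.23 in WT and 10.68 and 11.83 in K43M. Rps14, whose loss marks the 5q- syndrome, had 10.44 and 10.48 in WT and 10.23 and 8.92 in K43M. The last gave a log2 difference of -0.14 ± 0.12 (SE; adjusted p = 0.758 in limma). It was -0.07 without K43M replicate 2 and 0.88 with the peak nearest to a start, so its direction depends on the peak read. At an upstream start WT unnumbered had weak peaks with 2.92 and 3.25 and WT replicate 2 one with 2.64. Neither K43M list had a peak there, so the 0.88 compares peaks at different starts.

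Rpl22, a gene deleted in some lymphoid leukaemias, had 12.05 and 12.28 in WT and 10.96 and 10.09 in K43M, a log2 difference of -0.22 ± 0.10 (SE; adjusted p = 0.532 in limma). Both K43M lists were below both WT lists. Its paralog Rpl22l1 had 13.77 and 13.35 in WT and 12.94 and 13.08 in K43M. Rpsa, a small-subunit protein also known as a laminin receptor, had 10.43 and 10.82 in WT and 12.88 and 12.35 in K43M, a difference of 0.24 ± 0.10 (SE; adjusted p = 0.498 in limma). Of the X-linked genes, Rpl10 had 8.50 and 7.89 in WT and 8.36 and 8.31 in K43M, and Rps4x had 7.77 and 9.23 in WT and 8.46 and 9.15 in K43M. The groups overlapped at both X-linked genes.

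The stalk proteins recruit elongation factors to the ribosome. Rplp1 had 10.61 and 10.25 in WT and 12.24 and 10.41 in K43M, and Rplp2 had 7.88 and 7.39 in WT and 7.82 and 6.35 in K43M. With Rplp0 the log2 differences of the 3 stalk genes ran from -0.12 to 0.11, and none passed an unadjusted p of 0.05 in limma. Rplp2 ranked lower than the others by fold enrichment, between percentile 45.9 and 61.6, and between percentile 81.8 and 90.2 by -log10 q.

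Other genes of the ribosome and of its assembly were also described. Fau and Rack1, which encode cytosolic ribosomal proteins under other names, were open in all lists, with log2 differences of 0.04 and 0.14, and neither was called by limma. Of 7 translation elongation genes, all 7 were open in every list, and none was called for strength or width. Eef1g, a subunit of elongation factor 1, stood highest of them, at percentiles between 95.3 and 98.6. Of 40 ribosome biogenesis genes, 39 were open in all lists, and 0 were called by limma. Across all genes tested, 0.0191% were called higher and 0.00956% lower in fold enrichment, and 0% in width. At an unadjusted p under 0.05 in limma there were 6 of the 39 biogenesis genes. That is a higher share than the background of 9.43%, without a test. The median of their mean percentiles was 83.8, beside 80.1 for the members. Their log2 differences ran from -0.42 at Nop58, a protein of box C/D particles, to 0.72 at Ubtf, the factor that recruits RNA polymerase I to ribosomal DNA. Ubtf had fold enrichments of 6.6 and 7.98 in WT and 14.75 and 9.88 in K43M (adjusted p = 0.248 in limma).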

How the data were processed

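ATAC-seq had been done on 4 mouse lines, and the deposited data are 1 MACS2 peak list per line. According to the methods and the processing notes of the submitters, the authors trimmed reads with Trimmomatic 0.36, mapped them to mm10 with BWA 0.7.15, removed blacklisted, multimapping and low-quality reads with bedtools and SAMtools 1.3.1, and called peaks in each library with MACS2 2.1.0, without a stated control. The deposited fold enrichment (a ratio of summit signal to background) and -log10 q were given by the authors within each library. The WT list without a number was placed by its group name and the design text.

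Starts were taken from GENCODE release 21 (GRCm38), and sequences from the RefSeq GRCm38 genome. A gene's promoter peak was the one with the highest fold enrichment overlapping the promoter by at least 1 bp. Differences were fitted with limma 3.58.1 (R 4.3.3, trend) on quantile-normalised log2 values, with Benjamini-Hochberg adjustment over all genes tested. Peak overlap and the limma step were tested on simulated data. Other steps used Python 3.11.15, pandas 2.3.3, scipy 1.17.1 and pysam 0.24.0.

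Members, lists and tests were chosen with earlier results of these data known. Named members were those without a peak in at least 1 list, the 5 highest and 5 lowest by their lowest percentile, any past the threshold, the 5 highest and lowest differences in fold enrichment and 3 in width, and a panel of 19 symbols, of which Rps4l was not among the protein-coding genes. A few named genes and sequences are not reported here. Alternatives changed the promoter, transcripts, peaks, ranking, normalisation, model and lists used.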

Additional observations from a re-analysis of the deposited data

How the results depend on the processing

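No paired analysis was possible because the lines are independent and the list labels share only replicate number 2 between the genotypes. The counts of members called for fold enrichment or width were 0 under every alternative that kept all 4 lists. Over all genes tested, these alternatives called 0 to 78 higher and 0 to 32 lower in fold enrichment, and 0 in width. The highest counts came with -log10 q, over 10455 genes. Few genes were called at all, so 0 members is close to the share over all genes. The count of genotype-only members was 0 under every alternative. With starts of protein-coding transcripts only, 79 members had a promoter peak in all lists, and Rpl35, whose peak lies at a noncoding start, had none. Leaving out a list in turn could only repeat the 80 members with a peak and the genotype-only count of 0. Each member had a peak in every list or in none. Without each list in turn, the mean of the list medians of the percentile lay between 79.7 and 80.2. That mean was 79.9 as reported, 82.3 when ranked by -log10 q and 62.8 among promoter peaks only. There the members had 63.8 and 60.3 in WT and 63.4 and 63.9 in K43M, genes with a peak in all lists 61.9, 61.8, 64.5 and 63.6, and genes with a peak in that list, a larger group, 59.5, 59.7, 60.4 and 60.3. The ETS share was 27.5% at the start of the gene entry, and the TOP share 42.5% with any start. Leaving out a list in turn gave width differences between -0.89 and 0.020 at Rps9 and between -0.11 and 1.18 at Rpl19, with both sign changes without WT replicate 2. At Rps14 the difference in fold enrichment was 0.88 with the peak nearest to a start, which compares peaks at different starts, against -0.14. Of the other values of named genes, 288 kept their direction and their side of the threshold. Leaving out a list leaves 1 line for a genotype, which the fit assumes to vary like the other genotype.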
